A study of Mus musculus with 12 samples.

Results

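Interferon-stimulated genes are switched on when a cell senses interferon, and they are described here in the livers of mice given silver nanoparticles by mouth. The members are a list of 40 genes taken by name, and the rule that chose them sets no threshold on a measured value. A member was analysed where a probe set (a group of array probes read together) named that gene alone. Of the 40, 38 had such a probe set, and where a gene had several, as Irf1 has 2, the brightest by its mean was used. Gbp6 shares its probe set with Gbp10, and no probe set used here names Ifi44, so these 2 genes were not analysed here. The 38 belong to 30063 genes named in this way, and all 38 were among the 19987 genes bright enough to be tested.

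The series holds 12 livers, each from a different mouse per the titles, in 3 groups of 4 with 2 females and 2 males in each. Mice of the PVP-AgNP group were gavaged daily over 7 days with silver particles of 20 nm coated with polyvinylpyrrolidone, at 4 mg silver per kg, and mice of the cit-AgNP group received particles of that size and dose coated with citrate. Control mice received water, so a coating given without silver is not among the groups analysed here. All 12 mice were 3 months old, were labelled C57BL/6J -Oca2p-un/J and so carried the p-un allele of the pigment gene Oca2 in every group, and their livers were taken 24 h after the last dose.

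Interferons bind receptors whose kinases JAK1 and TYK2 activate the factor ISGF3, to which STAT2 and IRF9 belong. ISGF3 binds the interferon-stimulated response element in front of its target genes, while interferon gamma acts at a shorter element called GAS. The induced genes encode sensors of viral nucleic acid, enzymes that degrade RNA or halt translation, GTPases that attack viruses and vacuoles, and proteins that switch the response off, and in the liver both hepatocytes and Kupffer cells, its resident macrophages, can express them.

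The promoters below are shown for their matches to the response element or, in Irf1, for its absence. Whether a match relates to the values further on was not tested. Windows of 300 bases, from 250 before to 50 after the transcription start, came from RefSeq on GRCm38.p6, and 29 of the 40 members matched by symbol. The element was searched as GAAA, any 2 bases and GAAA on either strand, and GAS as TTC, any 3 bases and GAA. The element was found for 17 of the 29 members (58.6%), against 1079 of 27025 genes with a window (3.99%). GAS was found for 9 of the 29 (31.0%), against 9.55% of genes, and the letters of both motifs overlapped in 2 windows of members. A match describes the letters and is not a measured site. Of the 8 promoters shown, 5 belong to the members of smallest p in either comparison with control among those whose window holds the element, and Irf1 is the member of smallest p whose window lacks it. Those of Ifit3 and Ifit1 were added after their values were seen. Each runs 5′ to 3′ on the gene's own strand. Capitals mark the response element, which reads as TTTC and TTTC where it lies on the opposite strand. In Irf1, which has no match to it in this window, capitals mark the GAS match. GAS matches also lie in the windows of Igtp (1), Oas1a (1) and Gbp7 (2), and these are left in lower case.
Isg15: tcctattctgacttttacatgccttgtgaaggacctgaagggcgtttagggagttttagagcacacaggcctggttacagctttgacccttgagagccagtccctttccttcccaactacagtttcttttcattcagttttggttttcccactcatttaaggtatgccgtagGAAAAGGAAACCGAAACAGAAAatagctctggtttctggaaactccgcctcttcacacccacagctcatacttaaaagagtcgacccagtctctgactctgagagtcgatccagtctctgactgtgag
Oas1a: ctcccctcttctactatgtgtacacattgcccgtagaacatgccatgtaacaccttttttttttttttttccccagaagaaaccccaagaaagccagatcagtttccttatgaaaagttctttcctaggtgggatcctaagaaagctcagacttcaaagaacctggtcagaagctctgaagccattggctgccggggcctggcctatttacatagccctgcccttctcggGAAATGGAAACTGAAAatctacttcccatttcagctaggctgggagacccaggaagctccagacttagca
Oas3: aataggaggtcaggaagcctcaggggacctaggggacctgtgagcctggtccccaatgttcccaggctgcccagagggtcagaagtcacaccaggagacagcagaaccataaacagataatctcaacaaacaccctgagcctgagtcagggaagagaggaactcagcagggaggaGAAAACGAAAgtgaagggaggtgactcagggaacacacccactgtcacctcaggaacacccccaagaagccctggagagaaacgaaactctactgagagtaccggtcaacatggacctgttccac
Igtp: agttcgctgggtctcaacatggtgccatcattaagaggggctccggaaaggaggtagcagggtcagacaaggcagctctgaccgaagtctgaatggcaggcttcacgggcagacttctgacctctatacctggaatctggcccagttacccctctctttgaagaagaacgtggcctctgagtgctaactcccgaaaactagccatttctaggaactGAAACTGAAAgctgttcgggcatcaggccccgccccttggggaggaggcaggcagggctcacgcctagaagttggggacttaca
Gbp7: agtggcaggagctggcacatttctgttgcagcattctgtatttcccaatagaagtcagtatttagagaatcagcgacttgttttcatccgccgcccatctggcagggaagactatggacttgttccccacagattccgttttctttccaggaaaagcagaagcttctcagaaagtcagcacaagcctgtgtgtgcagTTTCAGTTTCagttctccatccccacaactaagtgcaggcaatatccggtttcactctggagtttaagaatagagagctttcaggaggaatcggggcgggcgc
Irf1: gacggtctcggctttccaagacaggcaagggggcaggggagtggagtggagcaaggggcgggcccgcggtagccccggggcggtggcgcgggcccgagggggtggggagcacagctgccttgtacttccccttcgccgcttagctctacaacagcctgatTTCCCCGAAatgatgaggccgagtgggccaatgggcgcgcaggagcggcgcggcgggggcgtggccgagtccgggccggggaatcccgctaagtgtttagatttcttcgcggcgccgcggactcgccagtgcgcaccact
Ifit3: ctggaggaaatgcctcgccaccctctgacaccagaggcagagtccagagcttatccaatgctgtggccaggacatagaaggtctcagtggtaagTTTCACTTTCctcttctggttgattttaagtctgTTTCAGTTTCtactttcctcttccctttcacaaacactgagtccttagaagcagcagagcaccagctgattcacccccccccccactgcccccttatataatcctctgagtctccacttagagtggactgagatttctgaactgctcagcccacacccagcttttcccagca
Ifit1: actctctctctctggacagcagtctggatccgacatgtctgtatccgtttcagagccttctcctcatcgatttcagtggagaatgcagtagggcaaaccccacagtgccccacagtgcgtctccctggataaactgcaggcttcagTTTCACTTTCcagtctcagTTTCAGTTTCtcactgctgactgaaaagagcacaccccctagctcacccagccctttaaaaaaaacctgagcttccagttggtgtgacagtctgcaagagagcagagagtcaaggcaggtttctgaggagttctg
The windows are Isg15 at chr4:156200769-156201068, Oas1a at chr5:120907476-120907775 and Oas3 at chr5:120777610-120777909, all on the minus strand. On the plus strand lie Igtp at chr11:58199306-58199605, Gbp7 at chr3:142530086-142530385, Irf1 at chr11:53769764-53770063, Ifit3 at chr19:34583279-34583578 and Ifit1 at chr19:34640639-34640938. Isg15 holds 3 overlapping copies, the first beginning at -78, counted in bases from the transcription start. Oas1a holds 2 overlapping copies from -20, and Ifit3 and Ifit1 hold 2 separate copies each. The other 3 with the element hold 1 copy, beginning at -34 in Igtp, -53 in Gbp7 and -75 in Oas3.

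Values are log2 signals, so that a difference of 1 is a 2-fold signal, and levels of different genes are not set against each other because each probe set has its own scale. The scale ends at 19.93, a ceiling that none of the 38 members reached. Array medians were 4.13 to 4.40. The markers of hepatocytes, such as albumin, lay at the ceiling on all 12 arrays by their median, so a change in hepatocyte markers could not be seen. The separation of exon from intron control probes, a measure of array quality that is 1 when complete, was lowest in PVP-AgNP replicates 1 and 4 (0.778 and 0.794), against 0.804 to 0.842 on the other arrays. RNA came from whole liver, so fewer cells of a type and less RNA per cell cannot be told apart.

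These genes varied from mouse to mouse within each group. PVP-AgNP replicate 2, a female, was the highest of the 12 livers for 22 of the 38 members and lay above the mean of the 12 arrays for 37. The median deviation of the members from that mean was 0.55 in this liver, against -0.03, -0.15 and -0.20 in PVP-AgNP replicates 1, 3 and 4. In cit-AgNP replicates 1 to 4 it was 0.27, 0.06, -0.30 and -0.23, and in control replicates 1 to 4 it was -0.31, 0.04, 0.09 and 0.25. Control replicate 4, a female, was the highest for 8 members. The lowest value fell to control replicate 1, a male, for 12 members and to cit-AgNP replicate 3, also a male, for 9. Over all genes tested the median deviation lay between -0.03 and 0.02 in each liver. In PVP-AgNP replicate 2 the markers of Kupffer cells stood 1.45 above their own mean by their median and those of neutrophils and monocytes 1.01, and the part of these cells in the result was not tested.

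Members whose values are not given by liver further on spanned the following log2 signals over the 12 livers. The sensors Ifih1, Ddx58 and Dhx58 ran from 8.42 to 9.40, 7.39 to 8.34 and 5.92 to 6.62, and the factors Irf9 and Stat2 from 6.38 to 7.23 and 8.44 to 9.75. Ifit2 ran from 4.39 to 5.37. Of the synthetase family, Oas1b, Oasl1 and Oasl2 ran from 4.71 to 5.18, 5.42 to 6.03 and 4.27 to 5.41. Trim25 had one of the narrowest spans, 9.40 to 9.88. Among the effectors, Rsad2, known as viperin, ran from 5.61 to 6.80, Cmpk2, its neighbour and a nucleotide kinase, from 5.33 to 5.97, and Eif2ak2, the kinase PKR that halts translation, from 7.64 to 9.0. Bst2 ran from 12.13 to 14.08, Ifi35 from 6.31 to 6.85, Rtp4 from 6.10 to 7.03 and Xaf1 from 5.66 to 6.97. Parp9, Parp14 and Dtx3l ran from 6.96 to 7.95, 7.88 to 8.83 and 6.83 to 8.02, and the GTPase genes Gbp2 and Irgm1 ran from 5.76 to 7.67 and 8.58 to 9.83.

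**Figure D1:**
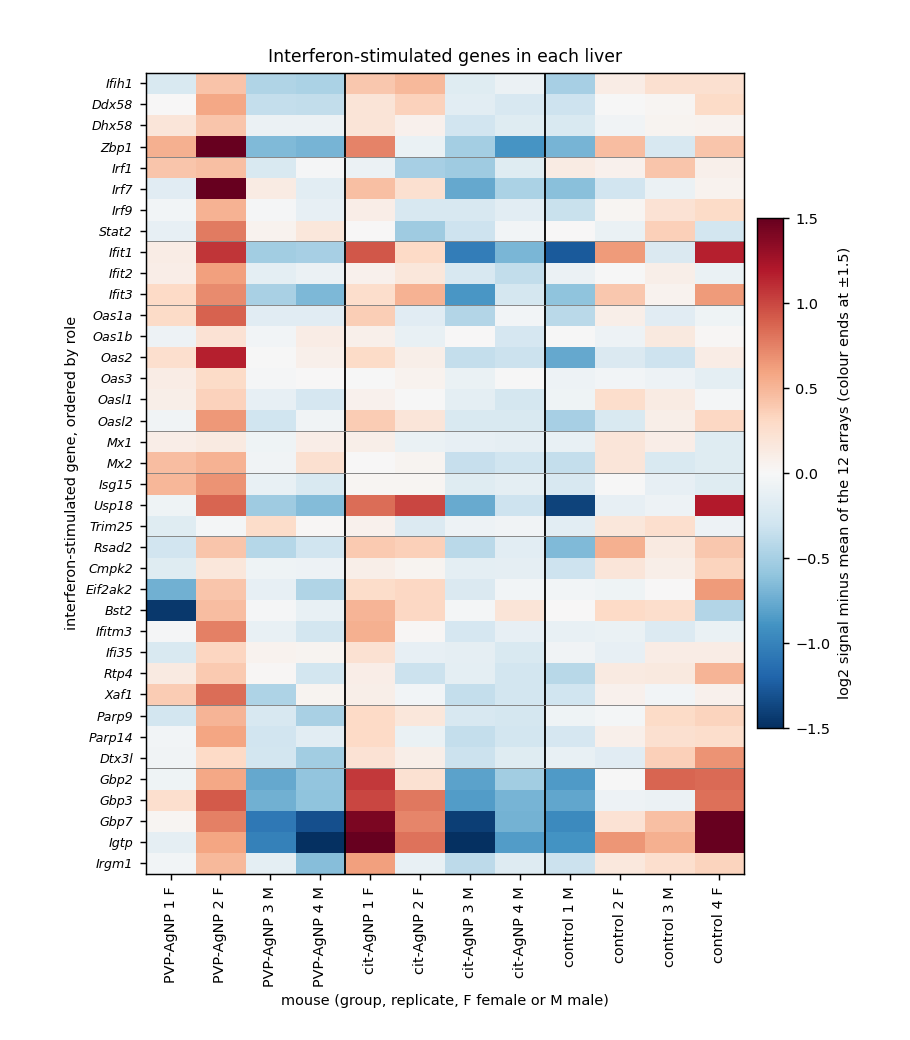
Each row is 1 of the 38 interferon-stimulated genes, ordered by role, and each column 1 liver. Colour gives the log2 signal minus the gene's mean over the 12 arrays, with the colour ending at ±1.5; PVP-AgNP replicate 2 is the highest liver in 22 rows, and the 2 cit-AgNP males lie above the gene's mean in 1 row each.

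In livers given PVP-AgNP, no interferon-stimulated gene changed past the threshold, an adjusted p under 0.05, relative to livers given water. Mx2, of the Mx family of GTPases, and the RNA-activated enzyme gene Oas2 had the highest-ranked differences, both above control. Igtp, a GTPase that acts on pathogen vacuoles, had the largest one below control. The count was 0 of 38, where 0.04% of all genes tested passed, by limma with p-values adjusted over 19987 genes. At an unadjusted p under 0.05 there were 4 members above control and 1 below, where 20.3% of all genes had such a p. Differences were above 0 for 18 members and below 0 for 20, and their median was -0.01 on the log2 scale, as against -0.002 over all genes tested. That median changed sign with the alternatives, from -0.10 without PVP-AgNP replicate 2 to 0.13 with array quality as a covariate. Values ran from -1.04 to 0.66.

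Mx2 had log2 signals of 6.41, 6.47, 5.89 and 6.18 in the livers given PVP-AgNP, replicates 1 to 4, against 5.59, 6.12, 5.72 and 5.76 in control livers. Apart from control replicate 2, every control lay below all 4 livers given PVP-AgNP. The log2 difference was 0.44 with an SE of 0.09 and an adjusted p of 0.0875, and over the alternatives that adjusted p ran from 0.0521 to 0.399. Mx1, its neighbour and paralog, which carries a deletion in C57BL/6 mice, had a difference of 0.07 and signals of 4.13 to 4.49 over the 12 livers.

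Active oligoadenylate synthetases make a messenger that activates RNase L and so degrades RNA, though not every gene of the family encodes an active enzyme. Of the 6 genes of the family, 5 had differences above 0, with a median of 0.16. Oas2 had 5.68, 6.59, 5.42 and 5.50 in PVP-AgNP livers, against 4.66, 5.21, 5.12 and 5.54 in control livers. The groups overlap only through control replicate 4. Its difference was 0.66 (SE 0.18, adjusted p = 0.126), and without PVP-AgNP replicate 2 it was 0.47 (adjusted p = 0.118).

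Oas3 had 4.08, 4.25, 3.95 and 3.97 in PVP-AgNP livers, against 3.89, 3.92, 3.89 and 3.82 in control livers. It was the single member whose groups did not overlap, where 7.91% of all genes did not. These signals lie close to the lower limit for testing, 3.93, and the difference of 0.18 (SE 0.07, adjusted p = 0.196) was 0.09 after quantile normalisation. Oas1a had 6.13, 6.72, 5.67 and 5.67 in PVP-AgNP livers, against 5.44, 5.93, 5.67 and 5.78 in control livers, and the groups overlapped. Its difference was 0.34 (SE 0.17, adjusted p = 0.284), and 0.18 without PVP-AgNP replicate 2. The remaining genes of the family had differences of 0.03 for Oas1b, whose protein is truncated in most laboratory strains, -0.06 for Oasl1 and 0.14 for Oasl2.

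Isg15, a small protein that is attached to other proteins much as ubiquitin is, had 5.91, 6.09, 5.30 and 5.19 in PVP-AgNP livers, against 5.18, 5.41, 5.29 and 5.23 in control livers. Both females given PVP-AgNP lay above every other liver of the 12, while both males lay among the controls. The difference was 0.34 (SE 0.13, adjusted p = 0.195). Its partners in the system had differences of 0.003 for Usp18, the enzyme that removes ISG15 and restrains the interferon receptor, and -0.03 for Trim25, a ubiquitin ligase.

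Differences of the 5 interferon-inducible GTPases were all below 0, with a median of -0.43. Igtp had 10.10, 10.82, 9.22 and 8.73 in PVP-AgNP livers, against 9.33, 10.89, 10.76 and 12.03 in control livers. The groups overlap, and males were the lowest in each. Its difference was -1.04 (SE 0.41, adjusted p = 0.207). This value moved with array quality and with control replicate 3: it was -0.55 (adjusted p = 0.713) with the exon and intron separation as a covariate, and -0.70 (adjusted p = 0.407) without control replicate 3. Gbp7, a guanylate-binding protein, had 9.0, 9.72, 7.89 and 7.65 in PVP-AgNP livers, against 8.01, 9.18, 9.42 and 10.83 in control livers, with a difference of -0.79 (SE 0.42, adjusted p = 0.302).

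Among transcription factors, Irf7, which amplifies the making of interferon alpha, had 6.93, 8.78, 7.23 and 6.95 in PVP-AgNP livers, against 6.48, 6.82, 7.02 and 7.16 in control livers. The mean difference of 0.61 (SE 0.34, adjusted p = 0.324) came with 1 liver, replicate 2, far above the others. Of ISGF3, Stat2 had a difference of 0.23 and Irf9 one of 0.03, and Irf1 had -0.01. The sensors of viral nucleic acid ran from -0.20 for Ifih1 to 0.22 for Zbp1, the 3 IFIT genes, which restrain translation of viral RNA, from -0.17 to 0.15, and the 8 other effectors from -0.35 to 0.26. Dtx3l, Parp9 and Parp14, which encode partners and enzymes of ADP-ribosylation, had differences of -0.33, -0.26 and -0.05.

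**Figure D2:**
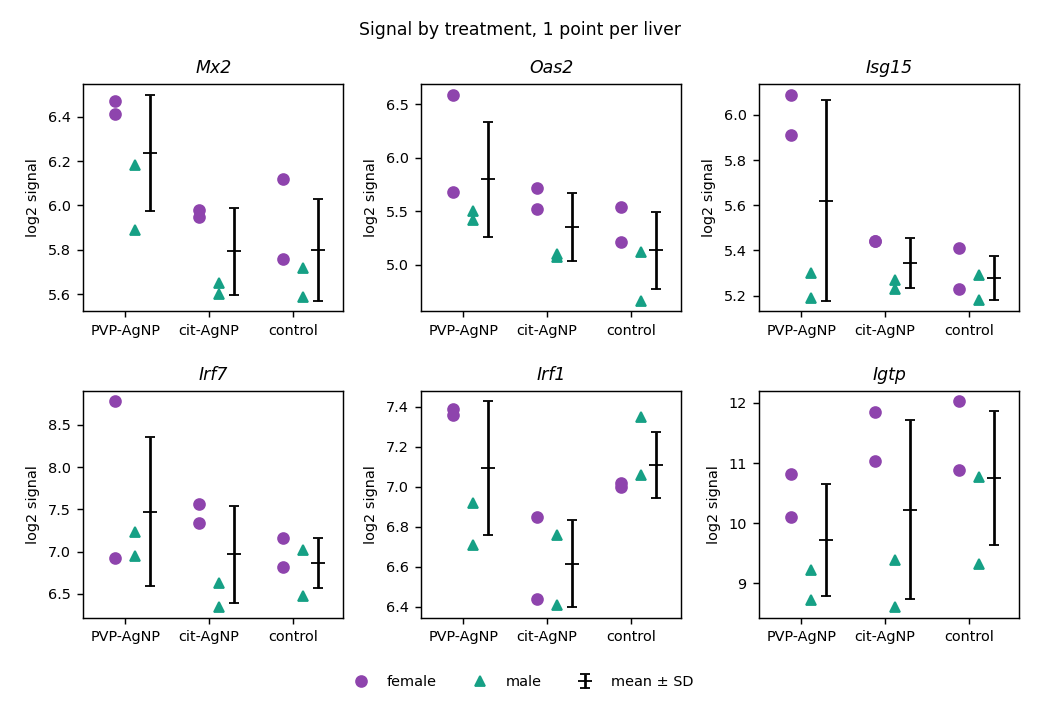
Log2 signal (y axis) of 6 genes in each liver by group (x axis), with circles for females, triangles for males and a bar for the group mean ± SD of 4 mice. The PVP-AgNP females are the 2 highest livers for Mx2 and for Isg15, and all 4 cit-AgNP livers lie below the controls for Irf1.

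Other cells of the liver are a measured background to these values. Markers of Kupffer cells were above control in 8 of 8 with a median difference of 0.43, those of neutrophils and monocytes in 6 of 8 (0.35), those of T and NK cells in 8 of 10 (0.08), those of B cells in 2 of 3 (0.08) and those of plasmacytoid dendritic cells in 3 of 5 (0.03). Markers of stellate cells were above control in 0 of 6 (-0.41) and those of sinusoidal endothelium in 1 of 6 (-0.33). None of these markers had an adjusted p under 0.05. The median level of the Kupffer cell markers ran from 7.64 to 9.46 in PVP-AgNP livers and from 7.57 to 8.42 in control livers. Whether the cell make-up had a part in the values of the interferon-stimulated genes was not tested.

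In livers given cit-AgNP, no interferon-stimulated gene changed past the threshold either, and Irf1, an activator of interferon target genes, was the member with the smallest p, below control. The count was 0 of 38 by limma, where 0.005% of all genes passed. At an unadjusted p under 0.05 there was 1 member, Irf1, where 6.57% of all genes had such a p. Differences from control were above 0 for 12 members and below 0 for 26, with a median of -0.08, against 0.0004 over all genes, and ran from -0.53 to 0.29. That median rested on single control livers: it was -0.007, with 18 of 38 above 0, without control replicate 3, and -0.13, with 9 above 0, without control replicate 2. These comparisons use the 4 control mice that the PVP-AgNP comparison uses.

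Irf1 had 6.85, 6.44, 6.41 and 6.76 in cit-AgNP livers, against 7.06, 7.00, 7.35 and 7.02 in control livers. All 4 treated livers lay below all 4 controls, the single member for which the groups did not overlap, where 4.30% of all genes did not. The difference was -0.49 (SE 0.16, adjusted p = 0.544). It ran from -0.57 to -0.375 with 1 array left out and from -0.57 to -0.31 over all alternatives. Irf1 has 2 probe sets, and the signals given by liver are those of the brighter. In PVP-AgNP livers Irf1 had 7.36, 7.39, 6.71 and 6.92, with both females above the highest control and both males below the lowest.

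The other 5 members of smallest p all had adjusted p-values of 0.889 or more. Igtp had 11.85, 11.04, 8.60 and 9.39 in cit-AgNP livers, and both males lay below both females. Its difference from control was -0.53 (SE 0.41, adjusted p = 0.951), and it moved with single livers, from -0.20 without control replicate 3 and -0.26 without cit-AgNP replicate 3 to -0.81 without cit-AgNP replicate 1 and -0.82 without control replicate 2. Oas2 had 5.72, 5.52, 5.07 and 5.10 in cit-AgNP livers, again with both females above both males, and a difference of 0.22 (SE 0.18, adjusted p = 0.958), which was 0.14 without control replicate 2. Differences were -0.25 for Rtp4, a chaperone of receptor transport, -0.24 for Dtx3l and -0.16 for Oasl1. Single livers moved these as well. Rtp4 had -0.14 without cit-AgNP replicate 2, -0.16 without control replicate 4 and -0.39 without control replicate 1. Dtx3l had -0.11, -0.12 and -0.44 without control replicates 3, 4 and 2, and Oasl1 had -0.10 and -0.24 without control replicates 3 and 4. Mx2 had 5.95, 5.98, 5.60 and 5.65 in cit-AgNP livers, which lie among the controls, and a difference of -0.005, with a 95% interval of -0.21 to 0.20. Beside these values, markers of Kupffer cells were above control in 8 of 8 with cit-AgNP (median 0.43), those of neutrophils and monocytes in 7 of 8 (0.13) and those of stellate cells in 0 of 6 (-0.24), none past the threshold, and their part was not tested.

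Precision limits both comparisons. The 95% interval of a member's difference reached 0.39 to either side of it at the median, from 0.15 for Oas3 to 0.92 for Gbp7. Changes smaller than that could be missed with 4 mice a group. Larger changes could be missed too, because the threshold is adjusted over all genes tested and is stricter than the interval. Differences with PVP-AgNP ran from -1.04 to 0.66, and none passed.

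**Figure D3:**
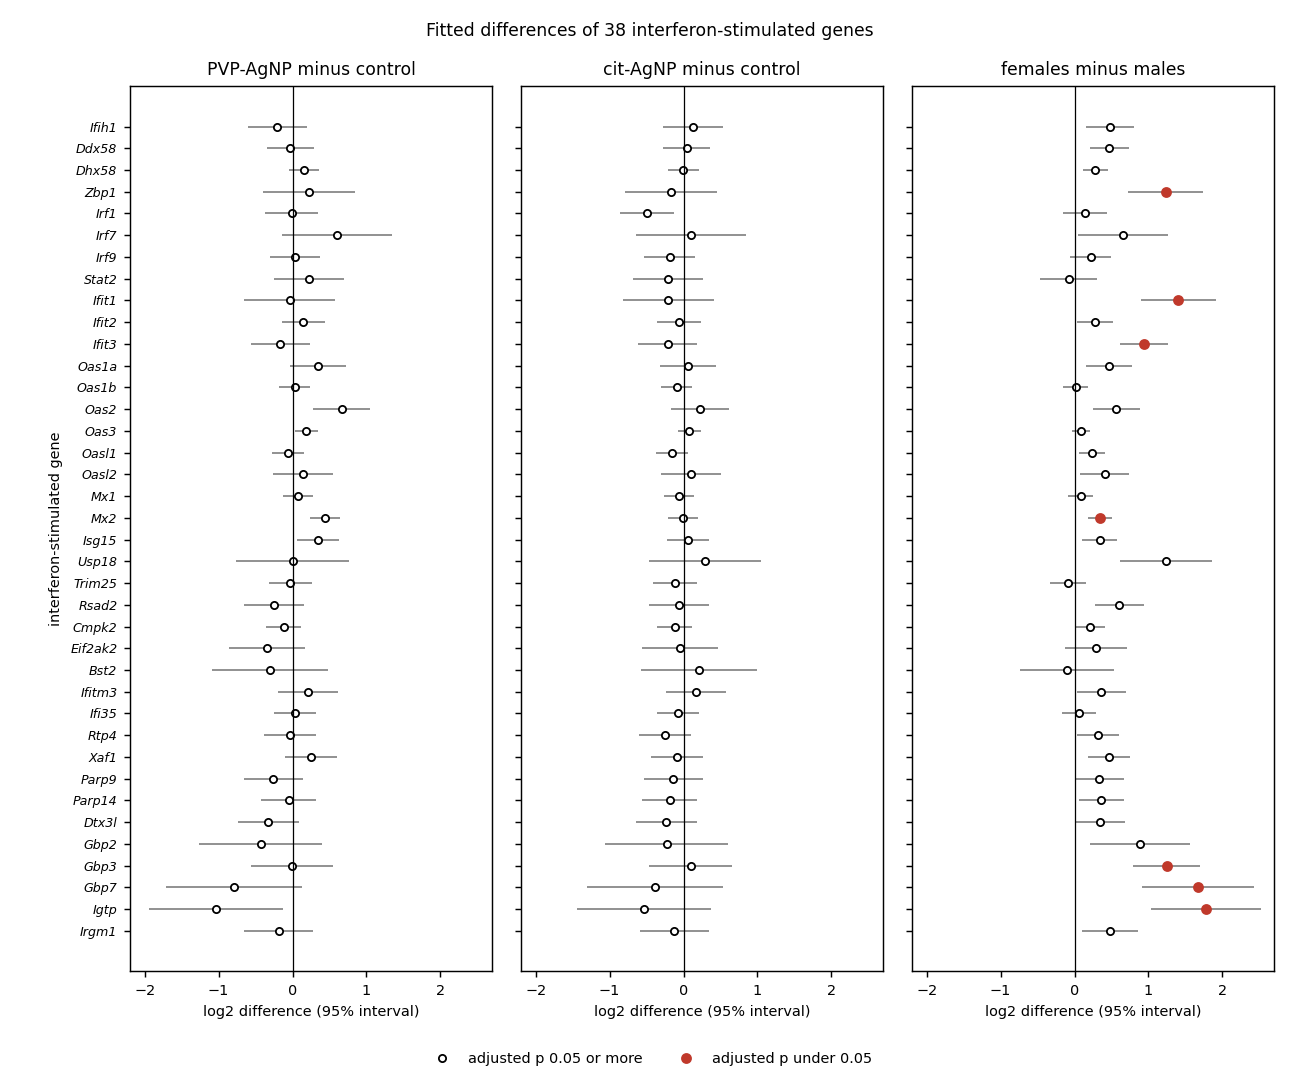
Points are fitted log2 differences (x axis) of the 38 genes (y axis) for PVP-AgNP minus control, cit-AgNP minus control and females minus males, and lines their 95% intervals. No point is filled in either treatment panel, and 7 are filled, to the right of 0, in the panel of females minus males.

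Between the coatings, PVP-AgNP minus cit-AgNP, 0 of 38 members passed, and the share of all genes past the threshold was 0%. At an unadjusted p under 0.05 there were 3 members, all higher with PVP-AgNP, where 14% of all genes had such a p. The 3 are Mx2 at 0.44 (SE 0.09, adjusted p = 0.212), Irf1 at 0.48 (SE 0.16, adjusted p = 0.305) and Oas2 at 0.44 (SE 0.18, adjusted p = 0.336). Next came Xaf1, a cell death factor, at 0.35, Isg15 at 0.28 and Stat2 at 0.44, with adjusted p-values of 0.359 to 0.385. The difference was above 0 for 25 of the 38, with a median of 0.11, against -0.001 over all genes. Without PVP-AgNP replicate 2 the median was 0.02 with 20 of 38 above 0, and the difference was 0.25 for Oas2, 0.20 for Xaf1, 0.17 for Isg15 and 0.22 for Stat2. For Irf1 it was 0.28 with the mean of its probe sets. No member separated the groups without overlap, where 7.20% of all genes did. For Mx2 the nearest values were 5.89 in PVP-AgNP replicate 3 and 5.98 in cit-AgNP replicate 2.

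Females and males differed in these genes. The comparison of 6 females with 6 males across all groups was taken up after values were seen. In females, 7 interferon-stimulated genes were higher past the threshold and 0 were lower, where 2.18% of all genes passed in either direction and 0.931% passed as higher in females. They are Ifit1 and Ifit3, Gbp3, Gbp7 and Igtp of the interferon-inducible GTPases, the nucleic acid sensor Zbp1 and Mx2, with fold differences of 1.27 to 3.44, and they are named because they passed and not by the rule for named genes. At an unadjusted p under 0.05, 28 members were higher in females and 0 lower, where 15.3% of all genes had such a p and 6.36% had it as higher in females. Differences were above 0 for 35 of the 38 with a median of 0.36, against -0.02 over all genes.

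Ifit3 had 7.41 to 7.85 in females with a median of 7.60, against 6.27 to 7.20 in males with a median of 6.60. The lowest female lay above the highest male, control replicate 3. The difference was 0.94 (SE 0.15, adjusted p = 0.00886). Ifit1 ran from 6.60 to 7.66 with a median of 7.27 in females, against 5.24 to 6.28 with a median of 5.89 in males, and its difference was 1.40 (SE 0.23, adjusted p = 0.0113). Here too the sexes did not overlap. Ifit3b, a near-identical neighbour of Ifit3 that is no member, had a difference of 0.78 (adjusted p = 0.00718), and cross-hybridisation between their probes was not tested.

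Gbp3 ran from 6.12 to 7.20 with a median of 7.00 in females, against 5.35 to 6.11 with a median of 5.49 in males. Control replicates 2 and 3, a female and a male, were almost level. The difference was 1.25 (SE 0.21, adjusted p = 0.0127). Zbp1, which senses unusual nucleic acids and can start necroptosis, ran from 6.11 to 7.86 with a median of 6.71 in females, against 5.33 to 5.97 with a median of 5.53 in males, and its difference was 1.23 (SE 0.23, adjusted p = 0.0223).

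Igtp had the largest difference, 1.78 (SE 0.34, adjusted p = 0.0235), with 10.10 to 12.03 in females, median 10.96, against 8.60 to 10.76 in males, median 9.27. Gbp7 followed with 1.67 (SE 0.34, adjusted p = 0.0320), from 9.0 to 10.83 in females, median 9.71, against 7.55 to 9.42 in males, median 7.95. In both genes the sexes overlap through control replicate 3, the highest male. Mx2 differed by 0.34 (SE 0.07, adjusted p = 0.0428), from 5.76 to 6.47 in females, median 6.05, against 5.59 to 6.18 in males, median 5.69. The calls of Ifit3, Ifit1 and Gbp3 held in each of the 12 fits that left out 1 liver, whereas Zbp1 passed in 7 of them, Igtp in 4, Gbp7 in 3 and Mx2 in 1. The count of called members was 3 without control replicate 1, cit-AgNP replicate 1 or 4 or PVP-AgNP replicate 4, and it was 4 without cit-AgNP replicate 2 or 3 or PVP-AgNP replicate 2 or 3.

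Just short of the threshold came Usp18, with a difference of 1.24 (SE 0.28, adjusted p = 0.0525), 6.79 to 8.11 in females, median 7.77, and 5.53 to 6.84 in males, median 6.32. Groups of the sexes that did not overlap were found for 5 members, all higher in females (Zbp1, Ifit1, Ifit3, Ifitm3 and Gbp3), where 2.28% of all genes did not overlap. Ifitm3, a membrane protein that blocks viral entry, had 14.63 to 15.49 in females, against 14.46 to 14.62 in males, and an adjusted p of 0.284. By role, differences were above 0 for all 5 interferon-inducible GTPases, all 4 sensors and all 3 IFIT genes. So were those of all 6 genes of the synthetase family and all 3 of the PARP and DTX3L group. The 3 members below 0 were Stat2 at -0.08, Trim25 at -0.09 and Bst2, which tethers virus particles to the cell, at -0.10. For Bst2 the median was nonetheless higher in females, 13.88 against 13.57 in males. PVP-AgNP replicate 1, a female whose array had the lowest quality, was its lowest liver at 12.13. Of the 7 called genes 5 have a promoter window, and the response element was found in all 5. It was found for 58.6% of the 29 members with a window and for 3.99% of all genes with one. Whether the element relates to the difference between the sexes was not tested.

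**Figure D4:**
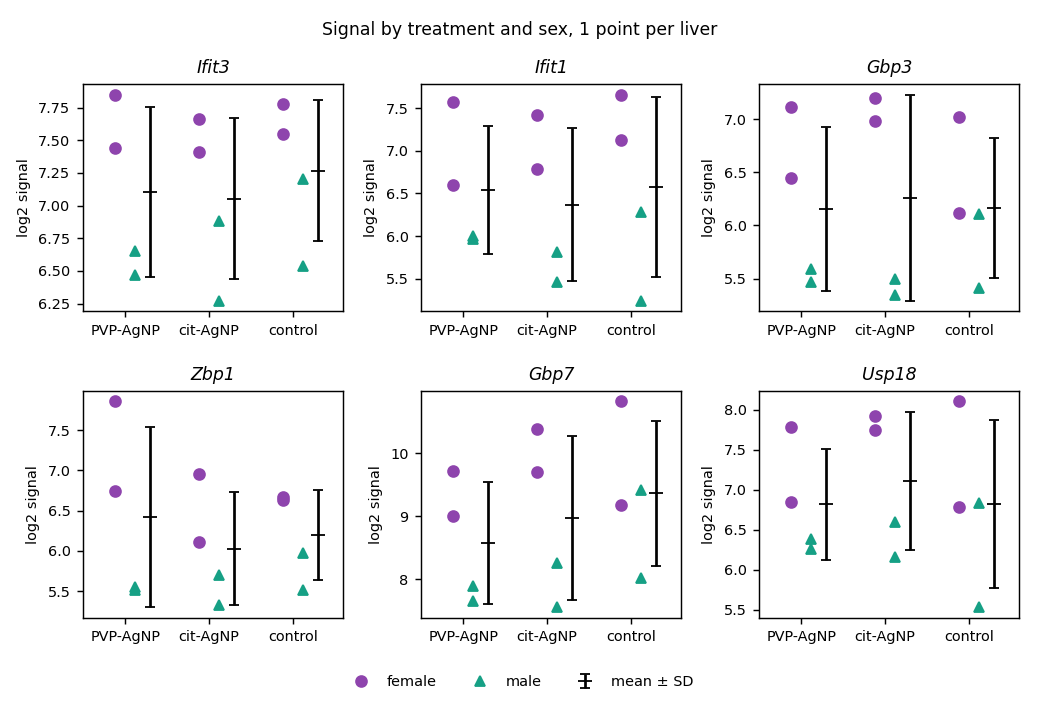
Log2 signal (y axis) of 6 genes in each liver by group (x axis), with circles for females, triangles for males and a bar for the group mean ± SD of 4 mice. For Ifit3, Ifit1 and Zbp1 every female lies above every male, and for Gbp7 and Usp18 the highest male is control replicate 3.

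The direction was shared by the 3 groups. Female minus male differences were above 0 for 35 of the 38 members in PVP-AgNP livers with a median of 0.51, for 36 in cit-AgNP livers with a median of 0.42, and for 30 in control livers with a median of 0.24, with 2 mice per sex in each. Over all genes tested the medians were -0.03, -0.03 and -0.01. Within PVP-AgNP livers 1 member passed, Isg15, with a difference of 0.76 (SE 0.10, adjusted p = 0.0220), where 0.37% of all genes passed. Within cit-AgNP livers 0 passed, where 0.19% of all genes did, and within control livers 0, where 0.16% did. Isg15 differed there by 0.19 and 0.08 between the sexes.

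Levels of some immune cell markers also lay higher in females. Those of Kupffer cells did so in 8 of 8 with a median difference of 0.72, and those of neutrophils and monocytes in 8 of 8 with 0.69. Of these, 5 and 2 had an unadjusted p under 0.05, where 6.36% of all genes had it as higher in females. None passed after adjustment, where 0.931% of all genes passed as higher in females. The median level of the Kupffer cell markers was 7.58 to 9.46 in females and 7.57 to 8.06 in males, and that of the neutrophil and monocyte markers 5.46 to 6.79 in females and 4.95 to 5.69 in males. Markers of T and NK cells were higher in 9 of 10 (0.15), those of stellate cells and of sinusoidal endothelium in 5 of 6 each (0.13 and 0.19), those of B cells in 1 of 3 (-0.01) and those of plasmacytoid dendritic cells, which make much interferon alpha, in 5 of 5 (0.02). Their part in the sex difference was not tested.

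Whether the response to a coating differed between females and males was tested directly with 6 means of group by sex. For PVP-AgNP 0 of 38 members passed, where 0% of all genes did, and 3 had an unadjusted p under 0.05, where 3.62% of all genes had. They are Isg15 at 0.68 (SE 0.14, adjusted p = 0.994), Irf1 at 0.75 (SE 0.26, adjusted p = 1) and Ifit2 at 0.52 (SE 0.22, adjusted p = 1), each the effect in females minus the effect in males. The difference was above 0 for 30 of the 38, with a median of 0.29, where 47.1% of all genes were above 0, with a median of -0.02. For cit-AgNP 0 passed, where again 0% of all genes did, and 0 had an unadjusted p under 0.05, where 2.45% of all genes had. Ifit2 at 0.47, Gbp3 at 0.85 and Dhx58, a helicase that tunes the RNA sensors, at 0.27 had the smallest p-values, all with an adjusted p of 1. Here 32 of 38 were above 0, with a median of 0.20, where 49.6% of all genes were above 0, with a median of -0.002. Both tests subtract the difference between the sexes in the same control livers, so their results are not independent of each other.

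**Figure D5:**
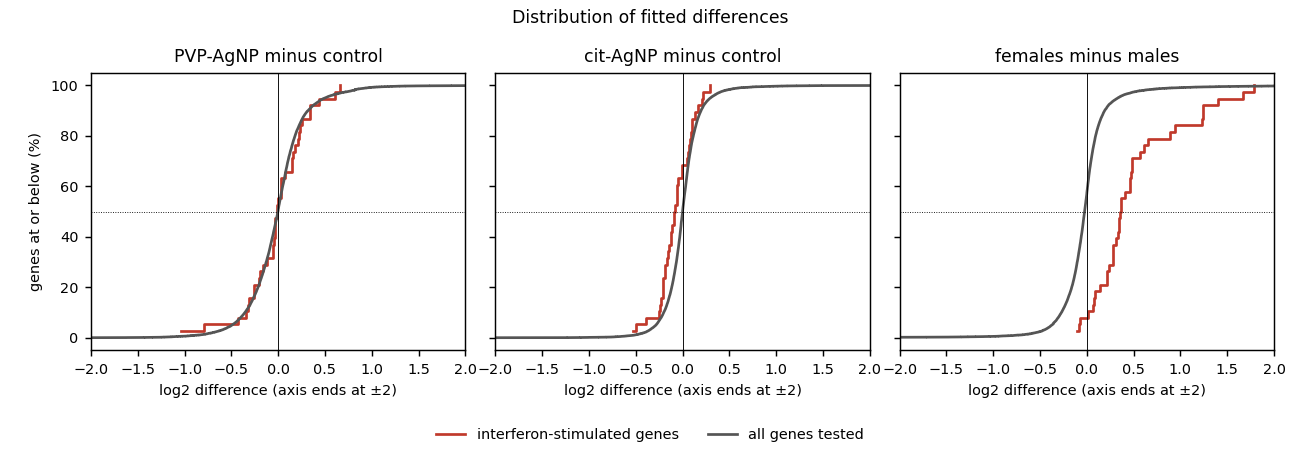
Cumulative share of genes (y axis, percent) at or below a fitted log2 difference (x axis, ending at ±2) for the 38 interferon-stimulated genes and for all 19987 genes tested. The curve of the 38 has its median at -0.01 for PVP-AgNP minus control, at -0.08 for cit-AgNP minus control and at 0.36 for females minus males.

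Upstream, the genes that make and transmit the signal gave no call with either coating. Of 18 interferon ligand genes 17 had a probe set and 8 were bright enough to test, with mean signals of 3.99 to 4.50 near the floor of the array. Their differences were above 0 in 8 of 8 with PVP-AgNP (median 0.12) and in 6 of 8 with cit-AgNP (0.08). Among the genes of interferon alpha, Ifna4 had 0.25 (adjusted p = 0.249) with PVP-AgNP and 0.14 with cit-AgNP, Ifna2 had 0.22 and 0.08, Ifna5 had 0.13 and -0.04, and Ifna13 had 0.05 and -0.19. Ifnb1, the gene of interferon beta, had 0.12 and 0.04, and Ifnk, that of interferon kappa, had 0.11 and 0.14. For interferon lambda, Ifnl3 had 0.18 and 0.09, and Ifnl2 had 0.11 and 0.08. Ifng, the gene of interferon gamma, was below the limit for testing, with a mean of 3.47.

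Of the 6 receptor genes 5 were tested, and Ifnlr1, the receptor of interferon lambda, was below the limit. Ifnar1, a chain of the type I receptor, had a difference of -0.32 with PVP-AgNP (SE 0.12, adjusted p = 0.185) and -0.19 with cit-AgNP. Ifnar2, the other chain, had 0.06 and -0.18, and the receptor genes of interferon gamma, Ifngr1 and Ifngr2, had -0.20 and -0.08 with PVP-AgNP and 0.23 and 0.12 with cit-AgNP. Il10rb, a chain that the receptors of interferon lambda and interleukin-10 share, had -0.004 and 0.005. Of the 5 JAK-STAT genes tested that are no members, Stat3, the factor of interleukin-6 signalling, had 0.82 with PVP-AgNP (SE 0.26, adjusted p = 0.159) and 0.35 with cit-AgNP, Tyk2 had -0.19 with PVP-AgNP, and Stat4 had 0.14 with cit-AgNP.

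Of 17 tested genes of sensors, adaptors and kinases, 0 passed with either coating. Tlr3, the receptor of double-stranded RNA, had -0.55 with PVP-AgNP (adjusted p = 0.130) and -0.50 with cit-AgNP (adjusted p = 0.508). Mavs, the adaptor of the RNA sensors, had -0.72 with PVP-AgNP (adjusted p = 0.142), and Tlr8 had 0.56 with cit-AgNP. Of 9 negative regulators, 0 passed. Rnf125, a ubiquitin ligase that limits the RNA sensors, had -0.58 with PVP-AgNP and -0.78 with cit-AgNP (adjusted p = 0.157 and 0.293), and Pias1 had -0.40 and -0.22.

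Among 48 other interferon-induced genes that are no members, 0 passed with either coating, with medians of 0.01 for PVP-AgNP and -0.06 for cit-AgNP. Lgals9, which encodes galectin-9, had -1.19 with PVP-AgNP (adjusted p = 0.119), and Irgm2, a relative of Igtp, had -1.15 (adjusted p = 0.144). With cit-AgNP, Trim21 had -0.42 (adjusted p = 0.257) and Pml had -0.35. Between the sexes, 3 were higher in females past the threshold (Ifit3b, Trim12c and Ddx60), where 0.931% of all genes were. At an unadjusted p under 0.05, 23 were higher and 0 lower, where 6.36% of all genes were higher, and 46 of 48 were above 0, with a median of 0.37. The list was chosen with results of these data known and is not independent evidence.

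Of 13 chemokine and antigen presentation genes tested, 0 passed with either coating, and B2m lay at the ceiling. Cxcl11 had -0.49 with PVP-AgNP and -0.53 with cit-AgNP (adjusted p = 0.161 and 0.472), Ccl5 had -0.39 with PVP-AgNP, and Tap1, a peptide transporter, had -0.34 with cit-AgNP. Cxcl10, a chemokine that interferon gamma induces, had -0.13 and -0.07, at signals near the floor (mean 4.28).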

How the data were processed

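One array per mouse measured total RNA from liver. The deposited values are log2 signals made by the authors; RMA and Transcriptome Analysis Console 4.0.1.36 are named per the submitters' processing notes, and the genome build and annotation are not given in the sources used here. The platform's table gave the gene names, with symbols updated through RefSeq (GRCm38.p6). Among its 72688 probe sets, 1 symbol was named by 30604, several by 2146 and none by 39938. Testing was limited to genes whose mean exceeded 3.93, the 40th percentile over probe sets, and used limma 3.58.1 (R 4.3.3), which moderates the spread along the mean signal, in 1 fit of group and sex over 12 arrays. Tests were two-sided and adjusted by Benjamini and Hochberg over 19987 genes. The scripts were tested on simulated data. SD is the standard deviation and SE the standard error of the fit.

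The members and lists were chosen with earlier results of these data known. Members with an unadjusted p under 0.05 were named, at most 12 and at least 6 per comparison of groups. Promoters had a rule of their own, given where they are shown. Of each pathway list, the 2 genes of smallest p per coating were named, and tested interferon ligands and receptors and Cxcl10 in any case. Replicate numbers were not used to pair the mice. Residuals of mice with the same number correlated at -0.44 to 0.23 over 12 pairs, with 2 pairs above 0.1. Those of mice with other numbers correlated at -0.37 to 0.52 over 36 pairs, with 13 above 0.1. So few pairs cannot exclude a step that mice of the same number shared. The 12 arrays correlated at 0.973 to 0.994 and no pair looked like a repeated array. Alternatives were the filter, the trend, the sex term, the groups fitted, quantile normalisation, the mean of probe sets, array quality, genes at the ceiling, a replicate block and each array left out.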

Additional observations from a re-analysis of the deposited data

Results flagged for a closer look

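In 6 of 114 groups of 4 mice, 1 liver lay far from the other 3 by Dixon's criterion, which chance meets in about 1 in 20 groups. PVP-AgNP replicate 2, a female, stood above its group for Irf7 (8.78, against 6.93 to 7.23 in the other 3), Irf9 (7.23, against 6.59 to 6.69) and Rsad2 (6.68, against 5.84 to 5.98). Control replicate 4, a female, stood high for Eif2ak2 (9.0, against 8.29 to 8.36). Control replicate 3, a male, stood high for Irf1 (7.35, against 7.00 to 7.06) and low for Ifitm3 (14.53, against 14.62 to 14.63).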

How the results depend on the processing

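No interferon-stimulated gene passed for PVP-AgNP against control, cit-AgNP against control or PVP-AgNP against cit-AgNP in any of the 24 alternatives, and none of the 6 members named by the rule in each of these comparisons changed sign. The counts over all genes did move, and the cause was not tested. For PVP-AgNP against control (8 genes) the count was 4 with no filter, 85 with the 60th percentile filter, 52 without the trend, 2 without the sex term, 0 with 2 groups only, 0 with 6 means of group by sex, 0 after quantile normalisation, 5 with the mean of probe sets, 2 with array quality as a covariate, 0 without the 2 arrays of lowest quality, 14 without genes at the ceiling (chosen after seeing the data), and 1 to 61 with 1 array left out. For cit-AgNP against control (1 gene) it was 4 with the 60th percentile filter, 2 without the trend, 2 after quantile normalisation, 5 with array quality as a covariate, 2 without genes at the ceiling and 0 without the sex term, with 2 groups only, with 6 means or without the 2 arrays of lowest quality, and 0 to 6 with 1 array left out. For PVP-AgNP against cit-AgNP (0 genes) it was 1 with 6 means and 1 after quantile normalisation.

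The alternatives for females against males were chosen after seeing the data. Of 7 interferon-stimulated genes past the threshold, 4 were counted without the 2 arrays of lowest quality (Gbp3, Ifit1, Ifit3 and Rsad2), 6 to 10 with the other filters, scalings and covariates, and 3 to 10 with 1 array left out. The median difference of the members ran from 0.28 to 0.43. With a replicate block, which takes up sex in part because the numbers and the sexes overlap, 0 passed, 16 had an unadjusted p under 0.05 and the median was 0.40. For PVP-AgNP and cit-AgNP against control the replicate block left 0 genes past the threshold. Whether the numbers mark a step that mice shared is not known.

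Precision is set by 4 mice per group. Signals near the floor, such as those of Oas3 and the interferon ligands, cannot show small changes, and genes at the ceiling of 19.93 cannot show any.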
